A study of Mus musculus with 9 samples.

Results

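Genes of cardiac muscle were followed in whole-lung RNA from mice with ventilator-induced lung injury (VILI) and from control mice. The set held 10 genes, Myh6, Actc1, Tnnt2, Tnni3, Myl7, Myl4, Nppa, Ryr2, Pln and Sln, out of 27203 gene IDs in the expression table, and was chosen by gene name. The FPKM values (fragments per kilobase of transcript, scaled to the mapped fragments of the library) of all transcript rows of a gene were added in each library. All 10 genes were found, and all passed the filter of a mean of at least 0.1 FPKM, which left 19378 genes for testing.

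The study sequenced lung RNA of 9 male C57BL/6 mice aged 6 to 8 weeks, with no allele or transgene named, 3 mice in each of 3 groups. Control mice were intubated and not ventilated. VILI mice had 4 hours of mechanical ventilation with a tidal volume of 20 ml/kg and were killed at the end of ventilation (VILI 0 hours) or 6 hours later (VILI 6 hours). Mice were anaesthetised with ketamine and xylazine before intubation, and during ventilation the anaesthesia was kept up and pancuronium was given as the muscle relaxant. Ventilation, the upkeep of anaesthesia and the relaxant are described together, so their parts in any difference from control cannot be told apart. The table gives levels and no read counts, so no counting error is given for a level. The read totals that the study lists per library were not used here, and precision was read from the spread between the 3 mice of a group.

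Cardiac muscle is found in the normal mouse lung because the wall of the pulmonary veins carries a sleeve of cardiac myocytes that continues from the left atrium. These myocytes use the atrial set of contractile proteins, release atrial natriuretic peptide and handle calcium through the sarcoplasmic reticulum as the heart does. The sleeve is electrically coupled to the atrium and is known as a source of ectopic beats. In bulk tissue, fewer cells of a type and less RNA per cell cannot be told apart, and neither can the sleeve and a piece of atrium left on the lung.

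Atrial light chains were abundant, and markers of ventricular and skeletal muscle were lower, some of them at 0. The atrial light chains Myl7 and Myl4 averaged 33.6 and 32.7 FPKM over the 9 libraries. Myl2, the ventricular regulatory light chain, reached at most 0.365 FPKM, and Irx4, a transcription factor of the ventricle, was listed at 0 in every library. Myh7 and Myl3, the slow heavy chain and the ventricular essential light chain, lay between 2.80 and 7.74 FPKM and between 1.89 and 5.67 FPKM. Hey2, a factor of the ventricle that vessel walls also express, lay between 2.02 and 2.67 FPKM, and its mean of 2.38 FPKM was above that of Ryr2. The atrial channel genes Kcnj3, Kcnj5 and Kcna5, named after their values were seen, were also low, with highest levels of 1.011, 0.641 and 0.537 FPKM. The fast skeletal proteins Myl1 and Tnnt3 averaged under the least abundant sarcomere gene of the set, with highest levels of 5.06 and 3.52 FPKM, and Acta1, the skeletal actin, reached 0.657 FPKM. Acta1 was named after its values were seen, as was Nkx2-5, a transcription factor of cardiac myocytes, at no more than 0.171 FPKM.

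A pair of libraries stood apart and touch every comparison. VILI 0 hours replicate 3 held the highest level of 9 of the 10 cardiac genes. The 10 genes summed to 387 FPKM in that library and to 175 to 207 FPKM in the other 8, which was 0.1002% of all FPKM there and 0.0450% to 0.0561% elsewhere. VILI 6 hours replicate 1 differed from its group in many genes outside cardiac muscle: without it, adjusted calls over all genes against control went from 136 to 4512 in VILI 6 hours and from 55 to 1343 in VILI 0 hours, where it enters only through the shared spread. Each comparison is therefore also given without each of these libraries. Column sums ran from 366360 to 388459 FPKM.

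**Figure D1:**
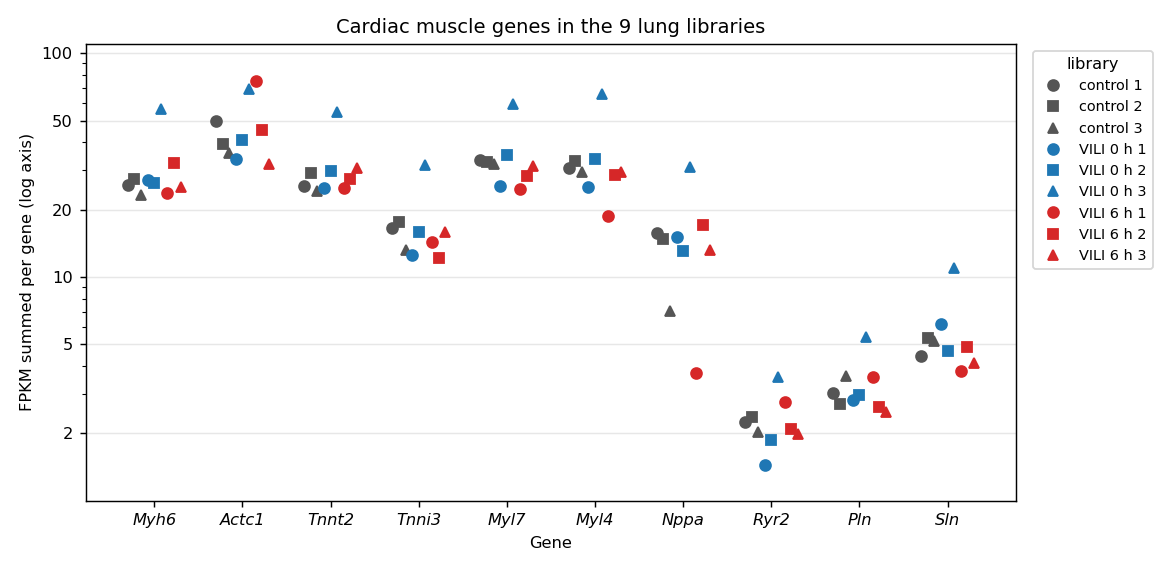
Level of each cardiac muscle gene (FPKM summed over its transcript rows, logarithmic axis) in the 9 libraries, 1 point per library, with colours for the 3 groups and marker shapes for replicate numbers. VILI 0 hours replicate 3 (blue triangles) is the highest point for every gene but Actc1, whose highest point is VILI 6 hours replicate 1 (red circle, 74.8 FPKM), and the lowest Nppa level is in that same VILI 6 hours library (3.74 FPKM).

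The thick filament gene Myh6 (ENSMUSG00000040752, chr14:54941921-54966927, minus strand, GRCm38) encodes alpha myosin heavy chain, the fast motor protein of the atrium and of the adult mouse heart. Its levels were 25.8, 27.3 and 23.2 FPKM in control mice, 27.2, 26.2 and 56.2 FPKM in VILI 0 hours, and 23.7, 32.5 and 25.3 FPKM in VILI 6 hours. The groups overlapped, and 8 of the 9 libraries lay between 23.2 and 32.5 FPKM, with VILI 0 hours replicate 3 at 1.73 times the next highest library. Of the 5989 stretches as long as a read in the longest Myh6 transcript, 485 (8.1%) also occurred in Myh7, so a small share of reads could have come from either gene. The longest transcripts of the other 9 genes shared no such stretch with another gene in the same orientation. The opposite orientation was not searched.

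Actc1 (ENSMUSG00000068614, chr2:114047282-114053548, minus strand, GRCm38) encodes cardiac alpha actin of the thin filament, and smooth muscle also expresses it. It was the most abundant gene of the set. Control libraries had 49.7, 39.4 and 35.9 FPKM, VILI 0 hours libraries 33.6, 40.8 and 69.1 FPKM, and VILI 6 hours libraries 74.8, 45.2 and 32.0 FPKM. It was the only one of the 10 genes with its highest level outside VILI 0 hours replicate 3. Its highest library, VILI 6 hours replicate 1, was also the highest for the smooth muscle actin Acta2 (129.8 FPKM, against 56.1 to 118 FPKM in the other 8). The part of smooth muscle in the Actc1 level was not tested.

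Tnnt2 (ENSMUSG00000026414, chr1:135836354-135852260, plus strand, GRCm38) encodes cardiac troponin T, which ties the troponin complex to tropomyosin. Summed over its 12 transcript rows it stood at 25.6, 29.0 and 24.2 FPKM in control mice, 25.1, 29.8 and 54.4 FPKM in VILI 0 hours, and 25.0, 27.4 and 30.8 FPKM in VILI 6 hours. The sum was thus within 24.2 to 30.8 FPKM in 8 libraries, while the row that carried it was not the same in all libraries. Row 1 led in control replicates 1 and 2 (12.7 and 17.5 FPKM) and was listed at 0 in the other 7 libraries. Row 4 led in control replicate 3, VILI 0 hours replicate 1 and VILI 6 hours replicate 1 (18.9, 22.4 and 19.2 FPKM), and row 6 led in the other 4 libraries (19.5 to 36.4 FPKM). The other 9 genes each had the same leading row in all 9 libraries. When the row with the highest mean, row 6, stood for the gene, Tnnt2 had an unadjusted limma P of 0.0301 in VILI 0 hours and 0.0152 in VILI 6 hours against control (adjusted p = 0.293 and 0.194), where the gene sum had log2 differences of 0.39 and 0.08. That row was listed at 0 in control replicates 1 and 2 and at 4.42 FPKM in control replicate 3, so its fold change is set by the 0.1 FPKM added before taking logs and is not given. The rows carry no transcript names, so the isoforms behind them are not named here.

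**Figure D2:**
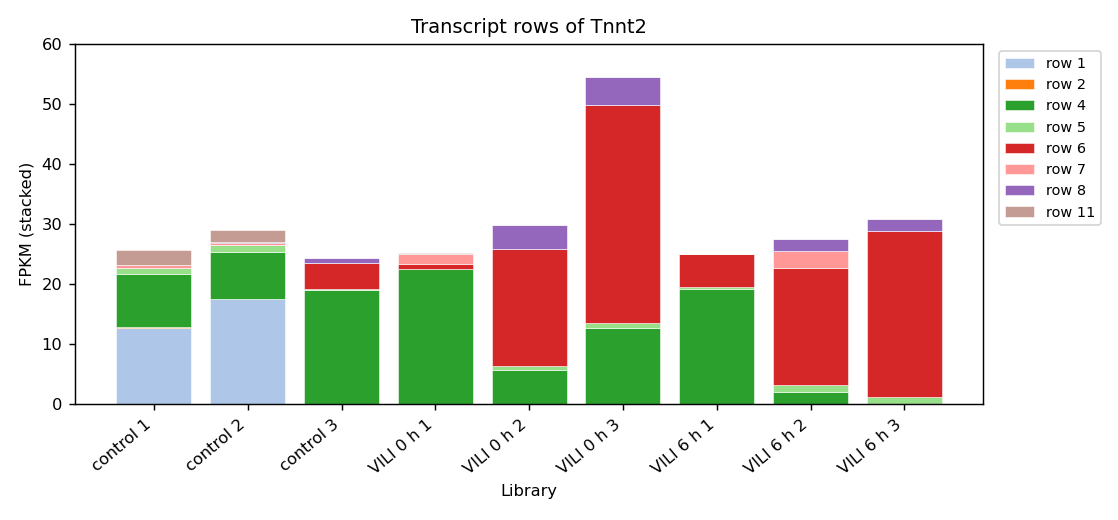
Stacked bars of the Tnnt2 transcript rows above 0 (8 of 12 rows), FPKM by library, with 1 colour per row. Bar heights are near 24 to 31 FPKM in all libraries but VILI 0 hours replicate 3 (54.4 FPKM), while the leading row is row 1 in control 1 and 2, row 4 in 3 libraries and row 6 in 4 libraries.

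Tnni3 (ENSMUSG00000035458, chr7:4518305-4524229, minus strand, GRCm38) encodes cardiac troponin I, the inhibitory subunit of the complex and a blood marker of heart damage. Its levels were 16.6, 17.6 and 13.2 FPKM in control mice, 12.5, 15.9 and 31.8 FPKM in VILI 0 hours, and 14.4, 12.2 and 15.8 FPKM in VILI 6 hours. VILI 0 hours replicate 3 was 2.24 times the mean of the other libraries of its group, the largest such ratio of the 10 genes, and the 3 groups overlapped. Dnaaf3 overlaps Tnni3 on the same strand in the annotation, though it held no stretch as long as a read in common with the longest Tnni3 transcript.

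Myl7 (ENSMUSG00000020469, chr11:5896637-5898782, minus strand, GRCm38) encodes the atrial regulatory light chain of myosin. Control libraries were close together at 33.5, 32.7 and 32.0 FPKM, VILI 0 hours libraries had 25.6, 35.0 and 59.2 FPKM, and VILI 6 hours libraries had 24.9, 28.2 and 31.2 FPKM. All 3 VILI 6 hours libraries were under all 3 control libraries, the nearest at 31.2 and 32.0 FPKM. Myl4 (ENSMUSG00000061086, chr11:104550663-104595753, plus strand, GRCm38) encodes the atrial essential light chain. It had 30.5, 33.1 and 29.6 FPKM in control mice, 25.3, 33.9 and 65.5 FPKM in VILI 0 hours, and 18.7, 28.4 and 29.4 FPKM in VILI 6 hours. The VILI 6 hours libraries were again all under the control libraries, with 29.4 and 29.6 FPKM at the nearest, and VILI 6 hours replicate 1 was the lowest of all 9.

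Nppa (ENSMUSG00000041616, chr4:148000722-148002079, plus strand, GRCm38) encodes atrial natriuretic peptide, which atrial myocytes release when stretched and which lowers vessel tone and blood volume. It was the most variable gene of the set, with a highest level 8.31 times the lowest against 2.15 to 3.49 times for the other 9. Control libraries had 15.7, 14.8 and 7.04 FPKM, VILI 0 hours libraries 15.1, 13.0 and 31.1 FPKM, and VILI 6 hours libraries 3.74, 17.0 and 13.2 FPKM. The low libraries were VILI 6 hours replicate 1 and control replicate 3, from different groups. Nppb, the related ventricular peptide (named after its values were seen), was at 0 in 4 libraries and at no more than 0.647 FPKM in the others. Corin, the protease that activates the Nppa product, was at 0.335 to 1.02 FPKM and was also highest in VILI 0 hours replicate 3.

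A promoter window each of Myl7, Nppa and Tnnt2 is shown because it lies wholly before the annotated exons and holds motifs that were searched. Tnnt2 has a second RefSeq window, chr1:135836739-135836988, which lies wholly in an annotated exon and held none of the motifs. The windows of Myl4 and Ryr2 also lie before the exons, but held none of these motifs. Each run is the 250 bases before the RefSeq transcript start, in the direction of the gene (GRCm38.p6), with capitals on the motifs found on either strand. The motifs are the CArG box (bound by serum response factor), the GATA motif AGATAA or TGATAA, the MCAT motif CATTCC (bound by TEAD factors) and the TATA box TATAAA.
Myl7 promoter, chr11:5898783-5899032, minus strand: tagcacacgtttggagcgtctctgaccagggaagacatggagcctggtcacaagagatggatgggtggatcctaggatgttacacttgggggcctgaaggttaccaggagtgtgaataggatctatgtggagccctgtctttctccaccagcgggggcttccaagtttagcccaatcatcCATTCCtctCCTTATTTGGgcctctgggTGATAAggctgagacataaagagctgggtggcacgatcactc
Nppa promoter, chr4:148000472-148000721, plus strand: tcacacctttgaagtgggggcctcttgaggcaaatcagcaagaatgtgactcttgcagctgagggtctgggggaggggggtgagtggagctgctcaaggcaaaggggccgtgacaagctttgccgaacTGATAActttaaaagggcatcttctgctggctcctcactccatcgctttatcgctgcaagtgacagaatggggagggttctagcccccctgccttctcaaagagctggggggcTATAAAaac
Tnnt2 promoter, chr1:135836084-135836333, plus strand: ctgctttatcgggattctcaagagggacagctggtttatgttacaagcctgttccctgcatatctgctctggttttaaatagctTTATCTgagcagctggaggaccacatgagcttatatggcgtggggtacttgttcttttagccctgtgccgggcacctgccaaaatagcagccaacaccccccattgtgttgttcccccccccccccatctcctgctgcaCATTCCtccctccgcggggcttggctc
The Myl7 run held an MCAT motif, a CArG box and a GATA motif within the 70 bases nearest the start, the Nppa run a GATA motif and a TATA box, and the Tnnt2 run a GATA and an MCAT motif. Counted from the start, the TATA box of Nppa lay at bases −9 to −4 and that of Pln at −219 to −214. RefSeq promoters were found for 9 of the 10 genes, all but Sln. A GATA motif was in the window of 4 of the 9 (Tnnt2, Myl7, Nppa and Pln), against 16.6% of 32851 promoters of the same length. A CArG box was in 2 of the 9 (Actc1 and Myl7), against 1.47% of all, an MCAT motif in 3 of the 9 (Myh6, Tnnt2 and Myl7), against 12.6%, and a TATA box in 2 of the 9 (Nppa and Pln), against 12.4%. A MEF2 site was in none of the 9 windows and in 2.92% of all. No binding was measured, and these letters are a description of the windows only.

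The 3 calcium genes were the least abundant of the set. Ryr2 (ENSMUSG00000021313, chr13:11553102-12106945, minus strand, GRCm38) encodes the cardiac ryanodine receptor, which releases calcium from the sarcoplasmic reticulum at each beat. Its levels were 2.25, 2.37 and 2.03 FPKM in control mice, 1.45, 1.88 and 3.56 FPKM in VILI 0 hours, and 2.77, 2.097 and 1.98 FPKM in VILI 6 hours. VILI 0 hours held both its lowest and its highest library. Pln (ENSMUSG00000038583, chr10:53337667-53345987, plus strand, GRCm38) encodes phospholamban, an inhibitor of the calcium pump, and is also expressed in smooth muscle. It had 3.02, 2.70 and 3.60 FPKM in control mice, 2.83, 2.98 and 5.37 FPKM in VILI 0 hours, and 3.59, 2.63 and 2.50 FPKM in VILI 6 hours, with all 3 groups overlapping. On the other strand, Cep85l overlaps the span of Pln. Predicted genes and A530058N18Rik overlap the spans of Myh6, Actc1, Myl4, Nppa and Ryr2 in the same way. Whether exons overlap was not examined, and where they do the reads cannot be told apart, as strand handling is unknown. Sln (ENSMUSG00000042045, chr9:53850164-53854560, plus strand, GRCm38) encodes sarcolipin, the atrial inhibitor of the same pump. It stood at 4.45, 5.35 and 5.20 FPKM in control mice, 6.17, 4.66 and 10.9 FPKM in VILI 0 hours, and 3.82, 4.87 and 4.12 FPKM in VILI 6 hours, and VILI 0 hours held both of its highest libraries.

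In order of mean level over the 9 libraries, the genes ran Actc1 (46.7 FPKM), Myl7 (33.6 FPKM), Myl4 (32.7 FPKM), Tnnt2 (30.2 FPKM), Myh6 (29.7 FPKM), Tnni3 (16.7 FPKM), Nppa (14.5 FPKM), Sln (5.51 FPKM), Pln (3.25 FPKM) and Ryr2 (2.26 FPKM). The order of Actc1 over Myl7, Myh6 over Tnni3, Sln over Pln and Pln over Ryr2 held in all 9 libraries. Neighbours that did not differ beyond their spread were Myl7 and Myl4 (Myl7 higher in 6 of 9 libraries), Myl4 and Tnnt2 (7 of 9), Tnnt2 and Myh6 (5 of 9), and Tnni3 and Nppa (7 of 9). Nppa was over Sln in 8 of 9 libraries, the exception being VILI 6 hours replicate 1 (3.74 and 3.82 FPKM).

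The cardiac genes were higher together in VILI 0 hours replicate 3. Against the mean of the other VILI 0 hours libraries the 10 ratios ran from 1.85 (Pln) to 2.24 (Tnni3), with a median of 2.06. The same ratio over 19200 genes had a median of 0.989, and 861 of them (4.48%) were at 1.85 or above. Of all genes tested, 1581 (8.16%) had their highest level in this library, against 9 of the 10 cardiac genes. These are descriptions of a single mouse, with no test.

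Several other lists, though not all, were also higher in that library. Against the mean of the other 8 libraries, the median log2 difference there was 1.05 for the 10 genes (10 of 10 above), 0.90 for 20 other cardiac sarcomere genes (20 of 20 above), 1.09 for 10 genes of cardiac energy metabolism (10 of 10 above), 0.55 for 10 smooth muscle genes (10 of 10 above), 0.37 for 11 skeletal muscle genes (7 of 11), 0.26 for 11 calcium handling genes (6 of 11) and −0.02 over all genes tested. It was 0.53 for 4 ventricular muscle genes (3 of 4 above), 0.38 for 6 fat genes (6 of 6) and 0.97 for 2 squamous epithelium genes (2 of 2). The squamous genes, Krt5 and Krt14, were at only 0.384 and 0.262 FPKM there, near the 0.1 FPKM added before taking logs. The median was nearer 0 for 10 atrial ion channel and junction genes (0.19, 5 of 10 above), 11 cardiac transcription factors (0.15, 7 of 11) and 7 genes of the cardiac load response (0.05, 4 of 7), and was −0.28 for 5 genes of the natriuretic peptide system (2 of 5 above). Myoglobin (Mb), the oxygen store of heart and red muscle, was at 40.3 FPKM there and at 9.92 to 25.1 FPKM in the other 8 libraries, and Tcap, a Z-disc protein, was at 16.0 FPKM against 4.82 to 13.8 FPKM. Atp2a2, the calcium pump that Pln and Sln restrain, which most cell types express, was at 95.4 FPKM against 68.4 to 90.4 FPKM. In summed level the smooth muscle list ran from 227 to 297 FPKM in control mice, from 262 to 403 FPKM in VILI 0 hours and from 245 to 400.2 FPKM in VILI 6 hours, so the groups overlapped. The part of smooth muscle in the levels of the cardiac genes was not tested.

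**Figure D3:**
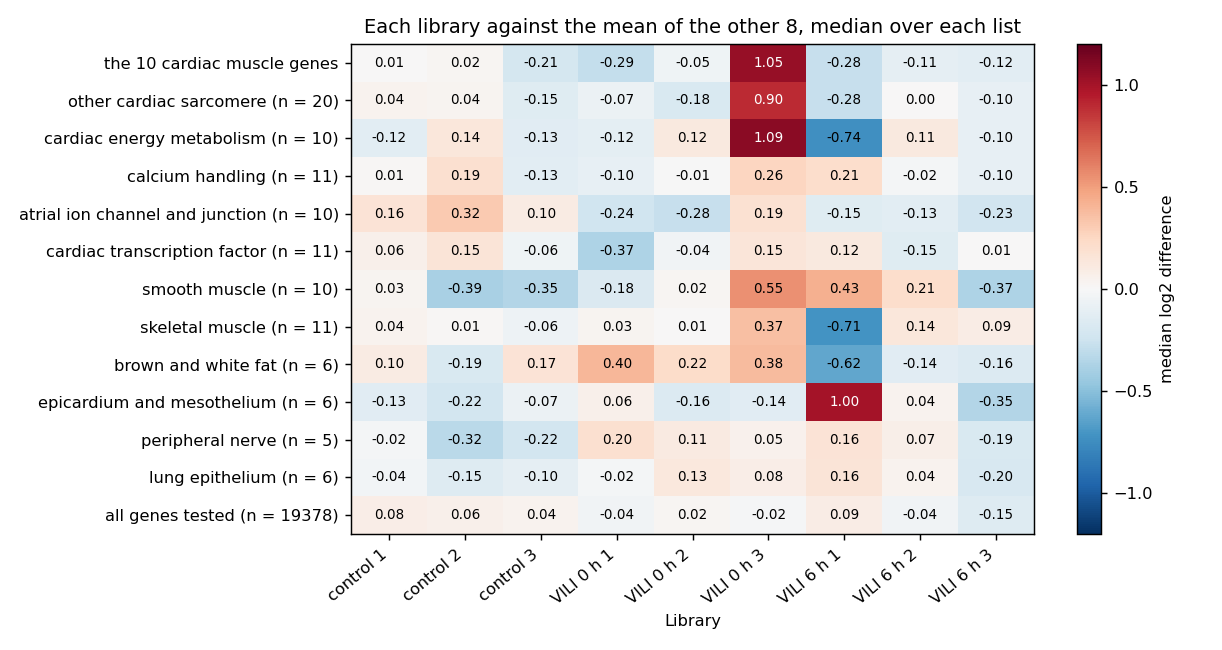
Median log2 difference between each library and the mean of the other 8, by gene list (rows, with the number of genes tested) and library (columns), red for higher and blue for lower. In VILI 0 hours replicate 3 the cardiac genes stand at 1.05, the other cardiac sarcomere genes at 0.90 and cardiac energy metabolism at 1.09, while all genes tested stand at −0.02. In VILI 6 hours replicate 1 mesothelial genes stand at 1.002 and cardiac energy metabolism at −0.74.

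The first comparison asks whether cardiac muscle RNA differed from control at the end of ventilation. The means of 9 of the 10 genes were higher in VILI 0 hours on the log2 scale and that of Ryr2 was lower, and no gene passed the test. Myh6 averaged 36.5 ± 17.0 FPKM (SD, n = 3) against 25.5 ± 2.08 FPKM in control mice, Sln 7.25 ± 3.27 against 5.002 ± 0.48 FPKM, and Nppa 19.7 ± 9.88 against 12.5 ± 4.77 FPKM. On the log2(FPKM + 0.1) scale these were differences of 0.43 (SE 0.26), 0.44 (SE 0.27) and 0.63 (SE 0.56). By limma with Benjamini-Hochberg adjustment over all genes, 0 of the 10 were called at an adjusted p under 0.05 (lowest 0.459, Sln), where 0.284% of all genes tested were called, and 0 had an unadjusted P under 0.05, against 16.2% of all genes. No gene of the set had groups that did not overlap, against 33.5% of all genes. The median over the set was 0.27, beside −0.07 over all genes. Without VILI 0 hours replicate 3 the median over the set was −0.09, with 4 genes higher than control and differences from −0.40 (Ryr2) to 0.25 (Nppa). Actc1, Tnni3, Myl7, Myl4 and Pln then changed sign, so the direction of the set rested on that library. VILI 6 hours replicate 1 enters only through the shared spread, and without it the median was 0.27 again. In that fit 0 genes of the set had an unadjusted P under 0.05, where 4493 of all 19378 genes did.

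The second comparison asks the same at 6 hours after ventilation. On the log2 scale 4 genes were higher and 6 lower than in control mice. Actc1 averaged 50.7 ± 21.9 FPKM (SD, n = 3) against 41.7 ± 7.20 FPKM, with a log2 difference of 0.21 (SE 0.33). Myl7 averaged 28.1 ± 3.20 against 32.7 ± 0.72 FPKM, a log2 difference of −0.22 (SE 0.25), and Myl4 25.5 ± 5.91 against 31.1 ± 1.84 FPKM, a difference of −0.31 (SE 0.31). In this comparison limma called 0 of the 10 genes (lowest adjusted p = 0.578, Myl4), where 0.702% of all genes tested were called, and 0 had an unadjusted P under 0.05, against 20.4% of all genes. The groups did not overlap for Myl7 and Myl4, 2 of the 10 genes, where 24.6% of all genes tested had groups that did not overlap. The two-sided exact permutation p of both was 0.1, the smallest that 3 against 3 libraries allow. The median over the set was −0.13, beside −0.09 over all genes. Without VILI 6 hours replicate 1 the median was −0.11, Myl7 and Myl4 were at −0.14 and −0.10, and Actc1 (−0.12), Nppa (0.34) and Ryr2 (−0.11) changed sign, so the directions of these 3 rested on that library. Without VILI 0 hours replicate 3, which is in neither group, the median was −0.13 again. In that fit 0 genes of the set had an unadjusted P under 0.05, where 3579 of all 19378 genes did.

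The third comparison is between the times, and it shares libraries with each of the others. On the log2 scale the means of 8 genes were lower in VILI 6 hours than in VILI 0 hours, and Actc1 and Ryr2 were the exceptions (the mean FPKM of Ryr2 was 2.28 and 2.296). Sln had the lowest unadjusted P, with 4.27 ± 0.54 FPKM (SD, n = 3) against 7.25 ± 3.27 FPKM. Its log2 difference was −0.67 (SE 0.27), with limma P = 0.0342 unadjusted and p = 0.458 adjusted, and its groups overlapped (exact permutation p = 0.2, two-sided). Nppa had the largest difference, −0.94 with SE 0.56, and Myl4 stood at −0.61 with SE 0.31. Of the 10 genes, 0 were called, where 0% of all genes tested were called, and 1 had an unadjusted P under 0.05, against 10% of all genes. None had groups that did not overlap, against 12.5% of all genes. The median over the set was −0.37, beside −0.02 over all genes. Without VILI 0 hours replicate 3 it was −0.01, and Sln was at −0.33 with an unadjusted limma P of 0.119. Without VILI 6 hours replicate 1 the median was −0.31, Sln was at −0.59, and Actc1 (−0.26) and Ryr2 (−0.07) changed sign. In that fit 0 genes of the set had an unadjusted P under 0.05, where 4350 of all 19378 genes did. The first and second comparisons use the same control mice, so their values are not independent of each other.

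**Figure D4:**
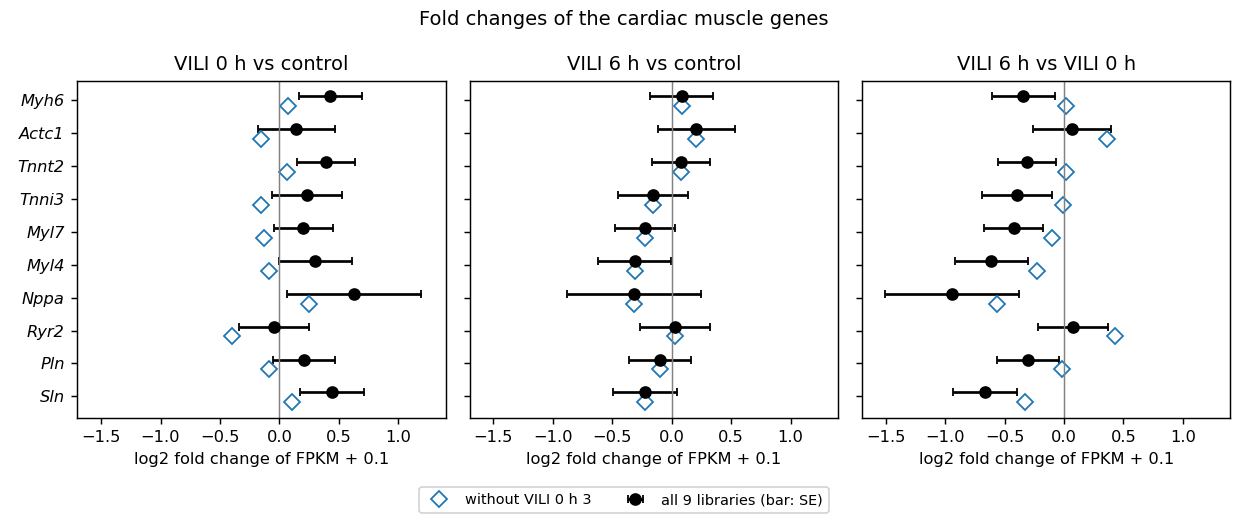
Log2 fold changes of the 10 cardiac muscle genes in the 3 comparisons, on the log2(FPKM + 0.1) scale (black circles with bars of 1 SE, all 9 libraries), and the same without VILI 0 hours replicate 3 (open diamonds). Circles are right of 0 for 9 genes in VILI 0 hours against control and left of 0 for 8 genes between the times, and the diamonds of both panels lie nearer 0 for the 8 genes other than Actc1 and Ryr2.

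The balance between the genes was examined by setting each gene against the mean of the other 9 in the same library, which takes out the level they share. Tnnt2, Myh6 and Myl7 kept the closest proportion, with SDs over the 9 libraries of 0.12, 0.14 and 0.14 on the log2 scale, where their own levels had SDs of 0.36, 0.39 and 0.37. Tnni3 (0.17), Myl4 (0.22), Sln (0.24), Pln (0.28) and Ryr2 (0.30) followed. Actc1 (0.46) and Nppa (0.71) departed most, and both did so in VILI 6 hours replicate 1, Actc1 by 1.12 above its mean proportion and Nppa by 1.63 below it. Myl4 was also low there (−0.50), and Ryr2 (0.65) and Pln (0.50) were high. In VILI 0 hours replicate 3 every gene was within 0.41 of its mean proportion.

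Groups did not overlap in this proportion for 1 of the 10 genes in each comparison. Ryr2 differed by −0.38 in VILI 0 hours against control and by 0.51 between the times, and Myh6 by 0.20 in VILI 6 hours against control. Set against the mean of the 10 cardiac genes in the same way, 22.6% of all genes tested had groups that did not overlap in VILI 0 hours against control, 19.3% in VILI 6 hours against control and 9.4% between the times, so the counts were near or under the background. No test was run on the proportions.

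**Figure D5:**
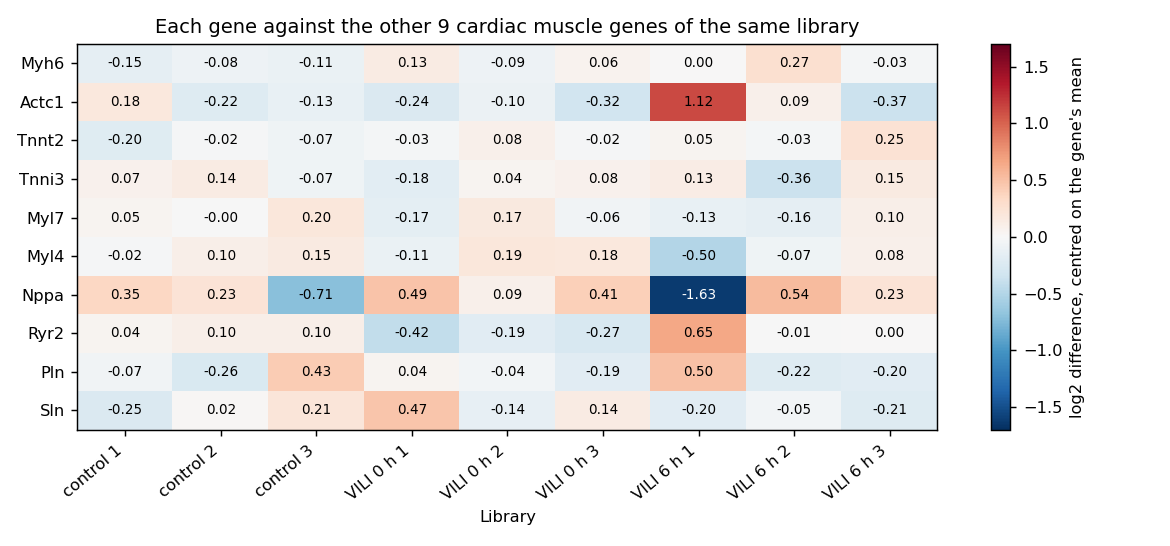
Log2 level of each gene minus the mean of the other 9 cardiac muscle genes in the same library, centred on the gene's own mean, red for more and blue for less than its usual share. Values lie within 0.71 of 0 in every cell but Actc1 (1.12) and Nppa (−1.63) in VILI 6 hours replicate 1.

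Other genes of cardiac muscle were read from lists by name. Of 20 further sarcomere genes, 17 were highest in VILI 0 hours replicate 3, and 0 were called in any comparison by limma. Over all genes tested 0.284% were called in VILI 0 hours and 0.702% in VILI 6 hours against control, and 0% between the times. At an unadjusted P under 0.05, 1 was higher in VILI 0 hours than in control, 1 was higher and 1 lower in VILI 6 hours than in control, and 2 were lower in VILI 6 hours than in VILI 0 hours, where 16.2%, 20.4% and 10% of all genes passed in the 3 comparisons in that order. The median log2 differences were 0.23, −0.20 and −0.26 in the 3 comparisons. Tnnc1, the calcium-binding troponin subunit, followed the set at 8.71, 9.70 and 8.36 FPKM in control mice, 6.61, 8.80 and 16.6 FPKM in VILI 0 hours, and 6.97, 7.77 and 8.61 FPKM in VILI 6 hours. Nebl, a thin filament protein with forms outside the heart, did not stand out in any library (51.7 to 68.0 FPKM).

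Of 11 calcium handling genes, 0 were called, and at an unadjusted P under 0.05 1 was higher and 2 were lower in VILI 0 hours and 2 were higher in VILI 6 hours against control, with 1 higher between the times. The counts of 3, 2 and 1 of 11 stand beside 16.2%, 20.4% and 10% of all genes. The 0 adjusted calls stand beside 0.284%, 0.702% and 0% of all genes in the same order. Camk2d, a calcium-dependent kinase of heart and other tissues, had 16.2, 13.4 and 14.8 FPKM in control against 19.9, 22.1 and 23.6 FPKM 6 hours after ventilation, with a log2 difference of 0.56 (SE 0.13, limma adjusted p = 0.0811). Slc8a1, the sodium-calcium exchanger, averaged 13.9 ± 1.34 FPKM (SD, n = 3) in control, against 10.4 ± 1.08 FPKM in VILI 0 hours (adjusted p = 0.207).

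Of 10 genes of cardiac energy metabolism, 0 were called, with 1 higher in VILI 0 hours, 1 higher and 1 lower in VILI 6 hours, and 1 lower between the times at an unadjusted P under 0.05. That is 1, 2 and 1 of 10 genes, beside 16.2%, 20.4% and 10% of all genes. Adjusted calls were 0 here, beside 0.284%, 0.702% and 0% of all genes. Pdk4, a brake on pyruvate oxidation that many tissues induce in fasting, was at 1.99, 2.03 and 2.50 FPKM in control mice, 30.7, 15.6 and 29.4 FPKM in VILI 0 hours, and 2.24, 19.2 and 22.6 FPKM in VILI 6 hours. Its log2 differences from control were 3.42 (SE 0.73, adjusted p = 0.0769) and 2.16 (SE 0.73, adjusted p = 0.161), and VILI 6 hours replicate 1 was at the control level. Fabp3, the heart fatty acid carrier, was at 5.14 FPKM in that library and at 8.28 to 14.3 FPKM in the other 8.

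The counts at an unadjusted P under 0.05 in the next 4 lists stand beside the same shares of all genes, 16.2% in VILI 0 hours against control, 20.4% in VILI 6 hours against control and 10% between the times. For adjusted calls the shares of all genes were 0.284%, 0.702% and 0% in the same order. Of 10 genes of atrial ion channels and junctions, 0 were called, and at an unadjusted P under 0.05 3 were lower in VILI 0 hours, and 1 was higher and 2 were lower in VILI 6 hours, than in control, with 1 higher between the times. That gene was Gja1, connexin 43 of heart and many other tissues. It had 29.4, 34.4 and 34.1 FPKM in control mice, 28.5, 20.9 and 19.3 FPKM in VILI 0 hours, and 43.5, 39.7 and 54.6 FPKM in VILI 6 hours. Its log2 difference between the times was 1.008 (SE 0.17, limma adjusted p = 0.143). Gja5, connexin 40 of atrial myocytes and of arterial endothelium, had 13.7, 14.3 and 12.5 FPKM in control mice, 3.08, 4.64 and 6.50 FPKM in VILI 0 hours, and 23.9, 4.08 and 2.73 FPKM in VILI 6 hours (log2 difference of −1.55 with SE 0.66 in VILI 0 hours, adjusted p = 0.286). VILI 0 hours replicate 3 was not among the 4 highest libraries of Gja5. Of 11 cardiac transcription factors tested (14 listed), 0 were called, with 2 lower in VILI 0 hours and 1 higher and 1 lower in VILI 6 hours than in control at an unadjusted P under 0.05, and the abundant ones, Tbx5, Gata6 and Mef2c, are also expressed in other lung cells. Of 7 genes of the cardiac load response, which stretched or overloaded heart muscle induces, 0 were called, with 1 lower in VILI 0 hours than in control and 1 higher between the times at an unadjusted P under 0.05. The most abundant of that list, Fhl1 (90.2 to 202 FPKM) and Rcan1 (13.8 to 35.9 FPKM), were highest in control replicate 3 and in VILI 6 hours replicate 3. The cells behind these levels were not examined. Ankrd1, a stretch-responsive gene of that list, averaged 11.7 ± 1.196 FPKM (SD, n = 3) in control, 8.55 ± 2.47 FPKM in VILI 0 hours and 11.9 ± 2.09 FPKM in VILI 6 hours. Of 5 genes of the natriuretic peptide system tested, 0 were called, with 1 higher and 2 lower in VILI 0 hours than in control and 1 higher between the times at an unadjusted P under 0.05. The gene higher between the times was Npr3, the clearance receptor. It had a mean of 27.1 ± 4.77 FPKM (SD, n = 3) in control, against 16.5 ± 4.96 FPKM in VILI 0 hours (limma adjusted p = 0.301). Its mean in VILI 6 hours was 34.0 ± 13.0 FPKM, with a log2 difference of 0.996 between the times (SE 0.33, limma adjusted p = 0.373).

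The genes outside the set whose profile over the 9 libraries was most like its mean profile were ranked by the root mean square difference of centred log2 levels, over 14098 genes with a mean of at least 1 FPKM. The nearest were Tnnc1 (0.11), Eef1a2 (0.14), Hrc (0.15), Smpx (0.16), Casq2 (0.17), Kyat3 (0.17), Mybphl (0.17), Actn2 (0.18), Lncpint (0.19) and Mn1 (0.19), against a median of 0.42 over all genes compared. A gene with the same level in every library would lie at 0.34. Tnnc1, Smpx and Actn2 are sarcomere proteins, Hrc and Casq2 bind calcium in the sarcoplasmic reticulum, and these 5 were also on the lists above. The same distance of each gene of the set from the other 9 was 0.12 for Tnnt2, 0.13 for Myh6 and Myl7, 0.16 for Tnni3, 0.20 for Myl4, 0.22 for Sln, 0.26 for Pln, 0.29 for Ryr2, 0.43 for Actc1 and 0.67 for Nppa, the last pair above the value of such a flat profile. All 10 nearest genes had their highest level in VILI 0 hours replicate 3, where the mean profile stood at 0.92 against −0.27 to 0.01 in the other 8, so this likeness rests largely on 1 mouse.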

How the data were processed

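The deposited table holds FPKM per transcript for 9 libraries, with Ensembl gene IDs and assembled loci. The authors aligned reads with TopHat2 2.0.9 (Bowtie2 2.0.6, GRCm38), built transcripts by means of Cufflinks and Scripture, and took FPKM from Cuffdiff 2.1.1. The kit is named in different ways in the sample records and in the methods of the study, so strand handling was taken as unknown. FPKM keeps no read counts, the read totals that the study lists per library were not used here, and a gene's value depends on how reads were divided among its transcripts. Of 60108 rows, 3490 loci had no Ensembl ID, and 23503 of 23713 Ensembl IDs matched GENCODE M21 by ID without version.

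FPKM was summed per gene and tested with limma 3.58.1 (R 4.3.3), with lmFit and a trended eBayes, on the log2(FPKM + 0.1) scale for 19378 genes with a mean of at least 0.1 FPKM, in 1 fit of all 9 libraries that had group as its single factor. P was adjusted by Benjamini-Hochberg over all genes. Fold changes on this scale are understated for genes near 0.1 FPKM. The script was tested on simulated data. Groups and replicate numbers came from the sample records, and mice are the replicates. Single genes were also tested by two-sided exact permutation, which cannot go below 0.1 with 3 against 3 libraries.

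The genes of the set and the lists were chosen with earlier results of these data known. The rule for naming took all 10 genes of the set, from each list the 4 genes with the highest mean (of which the text gives some), defining markers at 0 in every library and any gene called, and the 10 genes with the most alike profile. Names outside this rule are marked as chosen after their values were seen. Deviations of libraries with the same number, from their group means over genes, had correlations of −0.22 to 0.02 over 9 pairs, 0 of them above 0.1. Such deviations sum to 0 within a group of 3 libraries, and pairs with different numbers reached 0.17. The correlations therefore cannot decide whether the numbers pair the mice, and the main fit took the mice as unpaired. Alternatives were another pseudocount, filter, scaling, set of libraries, block, prior, transcript row in place of the sum, and leaving out each library. Promoters and genome positions are from RefSeq (GRCm38.p6) and GENCODE M21 (GRCm38).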

Additional observations from a re-analysis of the deposited data

How the results depend on the processing

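No gene of the set was called at an adjusted p under 0.05 under any alternative run, where the lowest adjusted p was 0.194. Of 540 alternative values of single genes, 26 had the opposite sign. Counts at an unadjusted P under 0.05 moved, and the causes were not tested. With the transcript row of the highest mean in place of the gene sum, the count went from 0 to 1 in VILI 0 hours and from 0 to 1 in VILI 6 hours against control (Tnnt2 in both), and Tnnt2 stood at 0.77 between the times. In that setting 2699 and 3427 of 19274 genes passed the same unadjusted threshold against control. Leaving out 1 library gave counts of 0 to 2 in VILI 0 hours against control (Tnnt2 and Myl7 without VILI 0 hours replicate 1, Sln without VILI 0 hours replicate 2) and of 0 to 5 between the times (Tnnt2, Tnni3, Myl7, Myl4 and Sln without VILI 0 hours replicate 1). Of all 19378 genes, 2497 passed it against control, and 1903 between the times, when VILI 0 hours replicate 1 was left out, and 2801 in VILI 0 hours against control when replicate 2 of that group was. Between the times it was 0 with only the 6 libraries compared, where fewer libraries enter the spread.

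With the replicate number as a block the count between the times was 2 (Sln and Myl4), where it was 1 without it, and over all 19378 genes it was 1693, where it was 1938 without it. Whether the numbers pair the mice is not known, and the block made no adjusted call in the set.

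Centring libraries on their medians moved the median of all genes from −0.07 to 0.05 in VILI 0 hours and from −0.09 to 0.04 in VILI 6 hours against control, moved the median of the set from 0.27 to 0.38 and from −0.13 to −0.0031, and turned Ryr2 to 0.069 in the first and Pln to 0.026 in the second. Over the fits without 1 library, log2 differences in VILI 0 hours against control ran from −0.16 to 0.36 for Actc1, −0.15 to 0.52 for Tnni3, −0.13 to 0.48 for Myl7, −0.086 to 0.60 for Myl4, −0.40 to 0.22 for Ryr2 and −0.0853 to 0.37 for Pln. In VILI 6 hours against control they ran from −0.0511 to 0.17 for Myh6, −0.12 to 0.49 for Actc1, −0.0022 to 0.15 for Tnnt2, −0.73 to 0.34 for Nppa, −0.11 to 0.12 for Ryr2 and −0.26 to 0.0079 for Pln. Between the times they ran from −0.54 to 0.0126 for Myh6, −0.26 to 0.36 for Actc1, −0.54 to 0.0152 for Tnnt2 and −0.19 to 0.43 for Ryr2. Adjusted calls over all genes, on which the shares in the text rest, ranged from 1 to 1597 in VILI 0 hours and from 0 to 4512 in VILI 6 hours against control, and from 0 to 356 between the times.

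Over the fits without 1 library the median of the set ran from −0.09 to 0.51 in VILI 0 hours and from −0.13 to −0.05 in VILI 6 hours against control, and from −0.61 to −0.01 between the times. Its sign turned without VILI 0 hours replicate 3 in the first. With 3 mice a group and SEs of 0.24 to 0.56 on the log2 scale, differences of the size seen here could not be told from the spread.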

Other observations

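Lists of other tissues that a lung sample can carry were read in the same libraries. Mesothelial genes, of the lining of lung and heart surfaces, were high in VILI 6 hours replicate 1 (5 of 6 above the mean of the other 8 libraries, as were 11655 of all 19378 genes tested), with a median log2 difference of 1.002. Other lists also stood apart in that library, with medians of 0.43 for smooth muscle (10 of 10 above), 1.22 for squamous epithelium (2 of 2), −0.62 for fat (1 of 6), −0.71 for skeletal muscle (1 of 11), −0.85 for thymus (0 of 2) and 0.09 over all genes. The squamous genes, Krt5 and Krt14, were at only 0.406 and 0.372 FPKM there, near the 0.1 FPKM added before taking logs. Msln, a mesothelial surface protein, was at 50.1 FPKM there and at 17.6 to 27.5 FPKM elsewhere, and Upk3b was at 24.8 FPKM against 5.73 to 13.4 FPKM. In the same library Nppa was lowest and Actc1 highest, and whether these values belong together was not tested. In VILI 0 hours replicate 3 the mesothelial median was −0.14.

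Cartilage and squamous epithelium genes were under 1 FPKM, as were those of thymus other than Cd1d1 and Cd8b1, with Rag2, Cnmd and Sprr3 listed at 0 in all 9 libraries. The lists held 1 adjusted call, in VILI 6 hours against control, where 0.702% of all genes tested were called. It was Cd1d1 of the thymus list, a lipid-presenting protein that other immune cells also express, at 5.70, 5.36 and 6.57 FPKM in control against 3.17, 3.01 and 2.94 FPKM 6 hours after ventilation. It was lower by 0.93 on the log2 scale (SE 0.14, limma adjusted p = 0.0257). All 3 VILI 6 hours libraries were under all 3 control libraries, where 24.6% of all genes tested had groups that did not overlap. Without control replicate 2, 0 genes of the whole table were called in this comparison.

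Adipoq, made by fat cells, ran from 3.81 to 4.99 FPKM in control, against 3.02 to 3.10 FPKM in VILI 6 hours, with a log2 difference of −0.52 (SE 0.14, limma adjusted p = 0.114). In VILI 0 hours it was at 5.37, 4.86 and 5.64 FPKM. Over the 6 fat genes tested, the median log2 difference of VILI 6 hours from control was −0.39, with Plin4 the other way at 0.49 and Cfd at −0.06. Prx, a protein of myelinating nerve sheath and of lung endothelium, ran from 44.4 to 45.5 FPKM in control and from 65.4 to 86.4 FPKM at the end of ventilation, with 48.6, 91.5 and 103 FPKM after 6 hours, with replicate 1 of the last group near control (limma adjusted p = 0.21 and 0.142 against control).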
